A study of Rattus norvegicus with 52 samples.

Results

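In entire sections of rat liver, 4 of 6 probe sets for Cyp2c genes were called lower with clofibric acid (CA) than without it, and 1 was called higher. Over all probe sets tested, 5.69% were called lower and 5.55% higher at 0.29% CA, and 7.74% lower and 8.10% higher at 0.54%. In entire liver sections, the probe set for Cyp2c11 averaged 3448 intensity units without the drug, 2301 at 0.29% CA and 1173 at 0.54% CA. The probe set for Cyp2c13 was higher with CA in the same sections, a call that was lost on the deposited scale, and no change was called for Cyp2c23. The call for 1 of the 4 lower probe sets, x79081mrna_f_at, lay close to the threshold at 0.29%. The Cyp2c genes encode cytochrome P450 enzymes of family 2, subfamily C. They were represented by 6 of the 8740 non-control probe sets of the array, taken as every probe set whose identifier begins with j02657 (Cyp2c11), j02861 (Cyp2c13), m18335, m18363 or x79081 (Cyp2c, with no closer name) or u04733 (Cyp2c23). All 6 were above the low-value limit on at least 1 array of each comparison, and all are described here.

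RNA of F344 rat liver (an inbred strain) was prepared from sections and hybridized to one-colour oligonucleotide arrays, 1 array per sample and 52 in all. CA belongs to the fibrates, drugs that act through the nuclear receptor PPARα, and the labels give its dose as 0, 0.29 or 0.54%. The sections came in 5 preparations. Microdissected liver, in which chosen regions are isolated under a microscope by laser capture microdissection (LCM), gave 2 arrays at 0% CA, 1 at 0.29% and 1 at 0.54%. LCM reference time sections, as the labels call them, and dehydrated sections each had 1 array per dose. Stained sections gave 8 arrays at 0%, 7 at 0.29% and 5 at 0.54%, and entire sections gave 8 at 0%, 8 at 0.29% and 6 at 0.54%. The labels call the rats at 0% untreated and name no other agent or allele in any group. The rats' sex and age, the route and length of treatment, the cells cut out by microdissection and whether samples are separate animals are not stated in the sources available. The p-values below therefore measure the spread between these samples, which may be technical.

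Cytochromes P450 of subfamily 2C are membrane-bound monooxygenases of the endoplasmic reticulum that, with electrons from P450 reductase, oxidize drugs, steroids and fatty acids. In rat liver several of them depend on sex: Cyp2c11, a steroid hydroxylase that is a major P450 of adult male liver, and Cyp2c13, another steroid hydroxylase, are known as male-specific enzymes maintained by the pulsed secretion of growth hormone in males. Cyp2c23 is known as an arachidonic acid epoxygenase of rat kidney and liver and is expressed in both sexes. In the RefSeq annotation of the rat assembly GRCr8, all 11 protein-coding genes named Cyp2c lie on chromosome 1. Between Cyp2c11 and Cyp2c13 the annotation has 18 protein-coding genes, 7 of them named Cyp2c, and between Cyp2c13 and Cyp2c23 it has 52.

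The 250 bases before the annotated start are shown for the 3 genes with a name of their own. In entire sections Cyp2c11 was called lower with CA and Cyp2c23 in neither direction. Cyp2c13 was called higher there, a call lost on the deposited scale and not made in stained sections. The sequences are from RefSeq (GRCr8), read 5′ to 3′ on the gene's strand, and end at the base before the start. Cyp2c11 is at chr1:246174966-246175215 on the plus strand, Cyp2c13 at chr1:248787189-248787438 on the minus strand and Cyp2c23 at chr1:252863068-252863317 on the minus strand. Capitals mark matches to the motifs listed after them.
Cyp2c11: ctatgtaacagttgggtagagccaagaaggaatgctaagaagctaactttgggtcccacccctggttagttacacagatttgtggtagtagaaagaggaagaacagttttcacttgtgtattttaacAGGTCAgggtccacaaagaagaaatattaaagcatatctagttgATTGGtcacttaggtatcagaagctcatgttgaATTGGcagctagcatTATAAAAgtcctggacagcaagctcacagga
Cyp2c13: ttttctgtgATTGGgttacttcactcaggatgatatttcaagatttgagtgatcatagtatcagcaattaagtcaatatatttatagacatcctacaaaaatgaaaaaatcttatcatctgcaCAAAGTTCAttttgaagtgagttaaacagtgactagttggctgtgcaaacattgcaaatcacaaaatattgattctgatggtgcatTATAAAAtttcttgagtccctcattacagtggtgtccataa
Cyp2c23: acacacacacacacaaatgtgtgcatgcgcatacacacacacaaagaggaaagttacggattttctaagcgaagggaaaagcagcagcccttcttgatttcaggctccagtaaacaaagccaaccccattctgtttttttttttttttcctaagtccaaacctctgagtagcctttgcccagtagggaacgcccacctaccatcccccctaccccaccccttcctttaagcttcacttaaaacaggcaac

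Both strands were searched for 6 motifs. The half-site of many nuclear receptors, AGGTCA, stood once in the Cyp2c11 promoter, with its first base 123 bases before the start, and is present in 14.1% of all 33469 rat promoters of the same length. A core of sites for the liver factor HNF4α, CAAAGNNCA, stood once in the Cyp2c13 promoter, 127 bases before the start, and is present in 5.22% of all promoters. The TATA box form TATAAAA, present in 5.38%, stood 31 bases before the start of Cyp2c11 and 41 before that of Cyp2c13. The CCAAT box core read on the opposite strand, ATTGG, is present in 34.0% of promoters and stood 79 and 46 bases before the start of Cyp2c11 and 241 before that of Cyp2c13. The paired site bound by PPARα with its partner RXR, 2 copies of that nuclear receptor half-site 1 base apart, overlaps the first motif by its make-up. It is present in 0.0508% of promoters and had no match in these windows. Nor had the site of STAT factors such as the growth hormone effector STAT5, TTCNNNGAA, which is present in 7.67%. The Cyp2c23 window held none of the motifs. A match is a run of letters, not a measured binding site.

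The probe set identifiers end in _s_at or _f_at, suffixes of probe sets that can share probes with related transcripts, so a value may include RNA of other Cyp2c genes and the split between members is uncertain. Levels are given as deposited intensities and are not compared between probe sets, whose probes differ in strength. Changes are log2 differences after a floor of 4 units and quantile normalization over the 52 arrays. They were tested with limma's moderated test, and a change was called where the Benjamini-Hochberg adjusted p over all probe sets tested lay under 0.05. In bulk sections, fewer cells that express a gene and less RNA per cell cannot be told apart.

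The arrays differed in a sign of RNA integrity. The GAPDH control probe sets, read as 3′ over 5′ intensity, had a median ratio of 8.45 (2.59 to 18.9) on the 20 stained arrays and 1.54 (1.18 to 6.49) on the 22 entire arrays. It was 11.8 (6.36 to 14.3) in dehydrated, 4.70 (3.12 to 7.28) in LCM reference time and 7.71 (3.02 to 14.3) in microdissected samples. By dose, its medians were 1.36 at 0%, 1.35 at 0.29% and 2.16 at 0.54% in entire sections, and 10.2, 7.32 and 4.47 in stained sections. Mean array intensities were 132 to 196 in stained and 163 to 202 in entire sections. On 3 entire arrays the ratio was above 4 and 3 stained arrays had a 5S rRNA intensity above 200, and results are also given without these 6 where that changes a call. Each limit was applied to that preparation only. The 5S rRNA intensity was also above 200 on microdissected control replicate 2 (285) and on the microdissected arrays at 0.29% (319) and 0.54% CA (754). It was 587 on the LCM reference time array at 0.29%. These arrays were kept. No 2 arrays of a group shared more than 4.97% of their intensities. The array table gives no gene names, so the tissue could not be checked against liver markers.

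In entire sections at 0.29% CA, 4 of the 6 Cyp2c probe sets fell and 1 rose, among 7804 probe sets tested of which 5.69% were called lower and 5.55% higher. The median log2 change was -0.86 over the 6 and -0.01 over all. At 0.54% CA the same counts were 4 lower and 1 higher, against 7.74% lower and 8.10% higher among all, with medians of -1.95 and -0.01. The step from 0.29% to 0.54% CA was called for fewer probe sets of the array: 4 of the 6 were lower at 0.54% than at 0.29%, while 0.538% of all probe sets were lower and 0.474% higher. Of those 4 step calls, the pair for m18335 and x79081 was lost under several settings, including when the arrays with a GAPDH ratio above 4 were left out. The comparisons at 0.29% and 0.54% share their control arrays, and the step shares arrays with both.

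Cyp2c11 (j02657_s_at) read 3768, 3471, 3155, 3423, 4024, 2541, 3824 and 3378 on the 8 entire control arrays, with a mean of 3448 ± 461 (SD, n = 8). At 0.29% CA it read 2362, 2315, 2536, 1931, 1963, 2417, 2642 and 2240, with a mean of 2301 ± 252 (SD, n = 8). At 0.54% CA it read 1123, 1262, 1067, 1253, 1318 and 1016, with a mean of 1173 ± 121 (SD, n = 6). Every array at 0.54% lay below every array at 0.29%, and 1 control array, replicate 6, lay within the range of the 0.29% arrays. The log2 change at 0.29% was -0.61 ± 0.14 (SE), 1.53-fold lower than in controls (adjusted p = 0.00532, limma). At 0.54% it was -1.76 ± 0.15, 3.38-fold lower (adjusted p = 1.98e-08, limma). Between the doses Cyp2c11 was 2.22-fold lower at 0.54% than at 0.29% (log2 change -1.15 ± 0.15, adjusted p = 0.000184, limma), and ranked 167 of 7804 by the size of that change.

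In stained sections Cyp2c11 also fell, with a wider spread between arrays. The stained controls read from 3398 to 6986 with a median of 4198 and a mean of 4615 ± 1294 (SD, n = 8). At 0.29% CA the range was 1388 to 3744, the median 2677 and the mean 2768 ± 778 (SD, n = 7). At 0.54% CA the 5 arrays read 864, 1157, 1040, 1952 and 1095, with a mean of 1222 ± 423 (SD). The array at 1952, replicate 4, was the only one of the 5 above the lowest 0.29% array, replicate 7 at 1388, which is also 1 of the 3 stained arrays with high 5S rRNA. Cyp2c11 was 1.68-fold lower at 0.29% CA than in controls (log2 change -0.75 ± 0.18, adjusted p = 0.0191, limma). That call was lost without the arrays of high 5S rRNA (adjusted p = 0.0501) and on the deposited scale (adjusted p = 0.0503). At 0.54% CA it was 3.90-fold lower than in controls (-1.96 ± 0.20, adjusted p = 1.47e-06, limma), with every array below every control. The step between the doses was 2.32-fold (-1.21 ± 0.20, adjusted p = 0.0354, limma), and its call was lost when any of 9 of the 12 arrays was left out. Over all 12 of these fits, with or without the call, the log2 change lay between -1.38 and -1.11. With the GAPDH ratio of the array as a covariate, the log2 changes of Cyp2c11 at 0.29% and 0.54% CA were -0.65 and -1.78 in stained and -0.60 and -1.85 in entire sections. All 4 were called, but the stained change at 0.29% lay close to the threshold (adjusted p = 0.0474, limma).

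**Figure D1:**
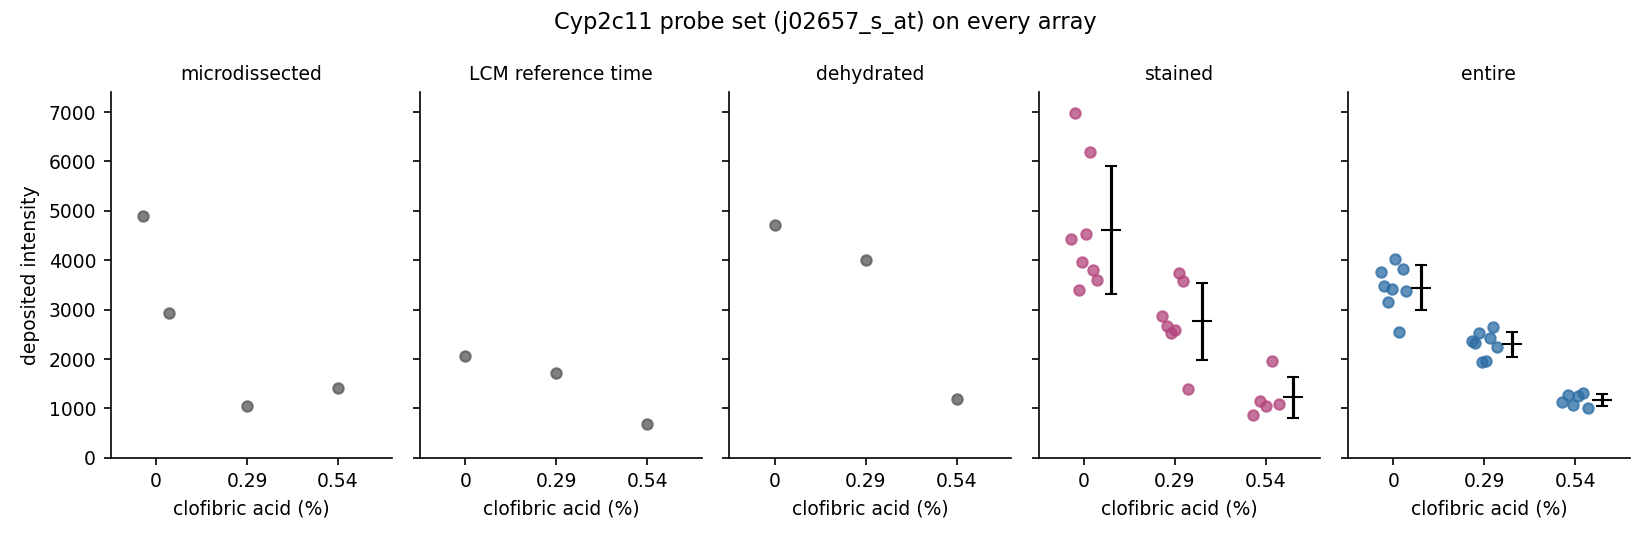
Deposited intensity of the Cyp2c11 probe set (vertical axis, intensity units) at each CA dose in the 5 preparations. Points are arrays, and in stained and entire sections bars give the mean ± SD. In entire sections all arrays at 0.54% CA, between 1016 and 1318, sit below all arrays at 0.29%, between 1931 and 2642.

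The single-array preparations followed with their own values. In dehydrated sections Cyp2c11 read 4719 at 0%, 4000 at 0.29% and 1196 at 0.54% CA. In LCM reference time sections it read 2061, 1710 and 676 at the same doses. In both, the reading at 0.54% was the lowest of the 3, and with 1 array per dose there is no replicate check. In microdissected liver Cyp2c11 read 1052 at 0.29% and 1419 at 0.54% CA, against 4889 and 2923 in the 2 controls, so both CA arrays lay below both controls. The arrays at 0.29% and 0.54% had mean intensities of 110.3 and 185.1, and after normalization their order turned, with log2 intensities of 10.84 at 0.29% and 10.51 at 0.54%. Ordered by mean intensity, the groups of more than 2 arrays ran from stained controls at 4615 through entire controls at 3448, stained 0.29% at 2768, entire 0.29% at 2301 and stained 0.54% at 1222 to entire 0.54% at 1173. The ranges of every pair of neighbours in that order overlapped.

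Of the probe sets named only Cyp2c, m18335_f_at fell at both doses, and most of its change was present at 0.29% CA. In entire sections it averaged 3306 ± 383 at 0% (2802 to 3900, median 3215, n = 8), 1375 ± 231 at 0.29% (1076 to 1829, median 1326, n = 8) and 900 ± 246 at 0.54% (669 to 1341, median 838, n = 6; SD throughout). Neither treated range reached the control range, while the treated ranges overlapped each other. It was 2.69-fold lower at 0.29% than in controls (log2 change -1.43 ± 0.15, adjusted p = 3.46e-07, limma) and 4.42-fold lower at 0.54% (-2.14 ± 0.16, adjusted p = 1.57e-09, limma). The further step to 0.54% was 1.64-fold (-0.72 ± 0.16, adjusted p = 0.0336, limma), a call that was lost without the arrays of high GAPDH ratio (adjusted p = 0.0523) and on the deposited scale (adjusted p = 0.149).

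In stained sections m18335_f_at averaged 3925 ± 1125 at 0% (2538 to 5409, n = 8), 1302 ± 568.1 at 0.29% (710 to 1974, n = 7) and 877 ± 464 at 0.54% (SD, n = 5). The 5 arrays at 0.54% read 660, 651, 1683, 849 and 541, with replicate 3 well above the other 4. Both treated groups lay below all controls, at 3.08-fold for 0.29% (log2 change -1.62 ± 0.25, adjusted p = 0.000339, limma) and 4.76-fold for 0.54% (-2.25 ± 0.28, adjusted p = 1.56e-05, limma). The step of -0.63 ± 0.29 was not called (adjusted p = 0.951, 95% interval -1.23 to -0.03).

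The probe set m18363cds_s_at was lower at each dose in turn. In entire sections it averaged 1878 ± 236 at 0% (1614 to 2365, median 1878, n = 8), 931 ± 166 at 0.29% (671 to 1101, median 968, n = 8) and 351 ± 88.5 at 0.54% (212 to 448, median 360, n = 6; SD throughout). The 3 ranges did not overlap. It was 2.16-fold lower at 0.29% CA than in controls (log2 change -1.11 ± 0.15, adjusted p = 1.04e-05, limma) and 6.01-fold lower at 0.54% (-2.59 ± 0.16, adjusted p = 6.16e-11, limma). The step was 2.78-fold (-1.48 ± 0.16, adjusted p = 9.18e-06, limma), rank 70 of 7804 by size.

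In stained sections m18363cds_s_at averaged 734 ± 402 at 0% (270 to 1643, median 631, n = 8), 320 ± 141 at 0.29% (101 to 490, median 348, n = 7) and 122 ± 25.6 at 0.54% (122, 90, 137, 155 and 105; SD). It was 2.40-fold lower at 0.29% (log2 change -1.26 ± 0.25, adjusted p = 0.00356, limma) and 6.49-fold lower at 0.54% (-2.70 ± 0.28, adjusted p = 1.52e-06, limma) than in controls. The step was 2.70-fold but was not called (-1.44 ± 0.28, adjusted p = 0.072, limma), although on the normalized scale every array at 0.54% lay below every array at 0.29%.

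The probe set x79081mrna_f_at read 989, 947, 932, 604, 749, 577, 522 and 822 on the entire control arrays (768 ± 183, SD). At 0.29% CA it read 605, 616, 651, 302, 261, 62, 400 and 450 (418 ± 205, SD), and at 0.54% it read 137, 138, 81, 95, 93 and 139 (114 ± 26.9, SD). The arrays at 0.54% were all below the controls, while the 0.29% arrays spread from replicate 6 at 62 up into the control range. Its log2 change at 0.54% against controls was -2.80 ± 0.39, 6.98-fold lower (adjusted p = 1.84e-05, limma). At 0.29% the change was -1.16 ± 0.36 (adjusted p = 0.041, limma) and the step between the doses -1.64 ± 0.39 (adjusted p = 0.0462, limma). Both of these calls lay close to the threshold. The first was lost when any of 8 of the 16 arrays was left out, with an adjusted p of up to 0.0798, and the second when any of 11 of the 14 was, with one of up to 0.117. Over these fits the first change lay between -1.30 and -0.83 (lowest adjusted p = 0.0247, limma). The step lay between -1.97 and -1.51 (lowest adjusted p = 0.000398, limma). Without 0.29% replicate 6 the first change was the smallest, -0.83, and the step the largest, -1.97.

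Cyp2c13 (j02861mrna_s_at) rose in entire sections. It averaged 1881 ± 321 at 0% CA (1478 to 2371, median 1874, n = 8), 2489 ± 313 at 0.29% (2230 to 3216, median 2431, n = 8) and 2560 ± 422 at 0.54% (2184 to 3286, median 2389, n = 6; SD throughout). The upper control arrays, 2263 and 2371, lay within both treated ranges. The rise was 1.43-fold at 0.29% (log2 change 0.52 ± 0.11, adjusted p = 0.00249, limma) and 1.52-fold at 0.54% (0.61 ± 0.12, adjusted p = 0.000853, limma), and no further change was called between the doses (0.09 ± 0.12, adjusted p = 0.844, 95% interval -0.15 to 0.34). On the deposited scale with each array centred on its median, neither rise was called (log2 changes 0.42 ± 0.16 and 0.45 ± 0.17, adjusted p = 0.133 and 0.0931, limma).

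In stained sections Cyp2c13 averaged 3203 ± 935 at 0% (2250 to 4509, n = 8), 3729 ± 593 at 0.29% (2771 to 4419, n = 7) and 3341 ± 263 at 0.54% (2910 to 3622, n = 5; SD throughout), and the ranges overlapped. No change was called at 0.29% (log2 change 0.20 ± 0.16, adjusted p = 0.699, 95% interval -0.13 to 0.54) or at 0.54% (0.01 ± 0.18, adjusted p = 1, 95% interval -0.36 to 0.38). The difference between the stained and the entire CA effect at 0.54% was -0.60 ± 0.20 and did not pass the adjusted threshold (unadjusted p = 0.00445, adjusted p = 0.303, limma). A rise in entire sections and none called in stained sections is thus not shown to be a difference between the preparations.

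Cyp2c23 (u04733_s_at) was not called in any comparison of CA with controls or between doses. In entire sections it averaged 2429 ± 297 at 0% (2014 to 2821, n = 8), 2222 ± 192 at 0.29% (1885 to 2582, n = 8) and 2392 ± 197 at 0.54% (2114 to 2637, n = 6; SD throughout). The 95% interval of its log2 change was -0.30 to 0.11 at 0.29% and -0.11 to 0.33 at 0.54% against controls, so changes of the size seen for Cyp2c11 lay outside it at both doses. In stained sections it averaged 2092 ± 315 at 0%, 1855 ± 319 at 0.29% and 2148 ± 608 at 0.54% (SD, n = 8, 7 and 5), with intervals of -0.64 to 0.02 and -0.54 to 0.18.

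**Figure D2:**
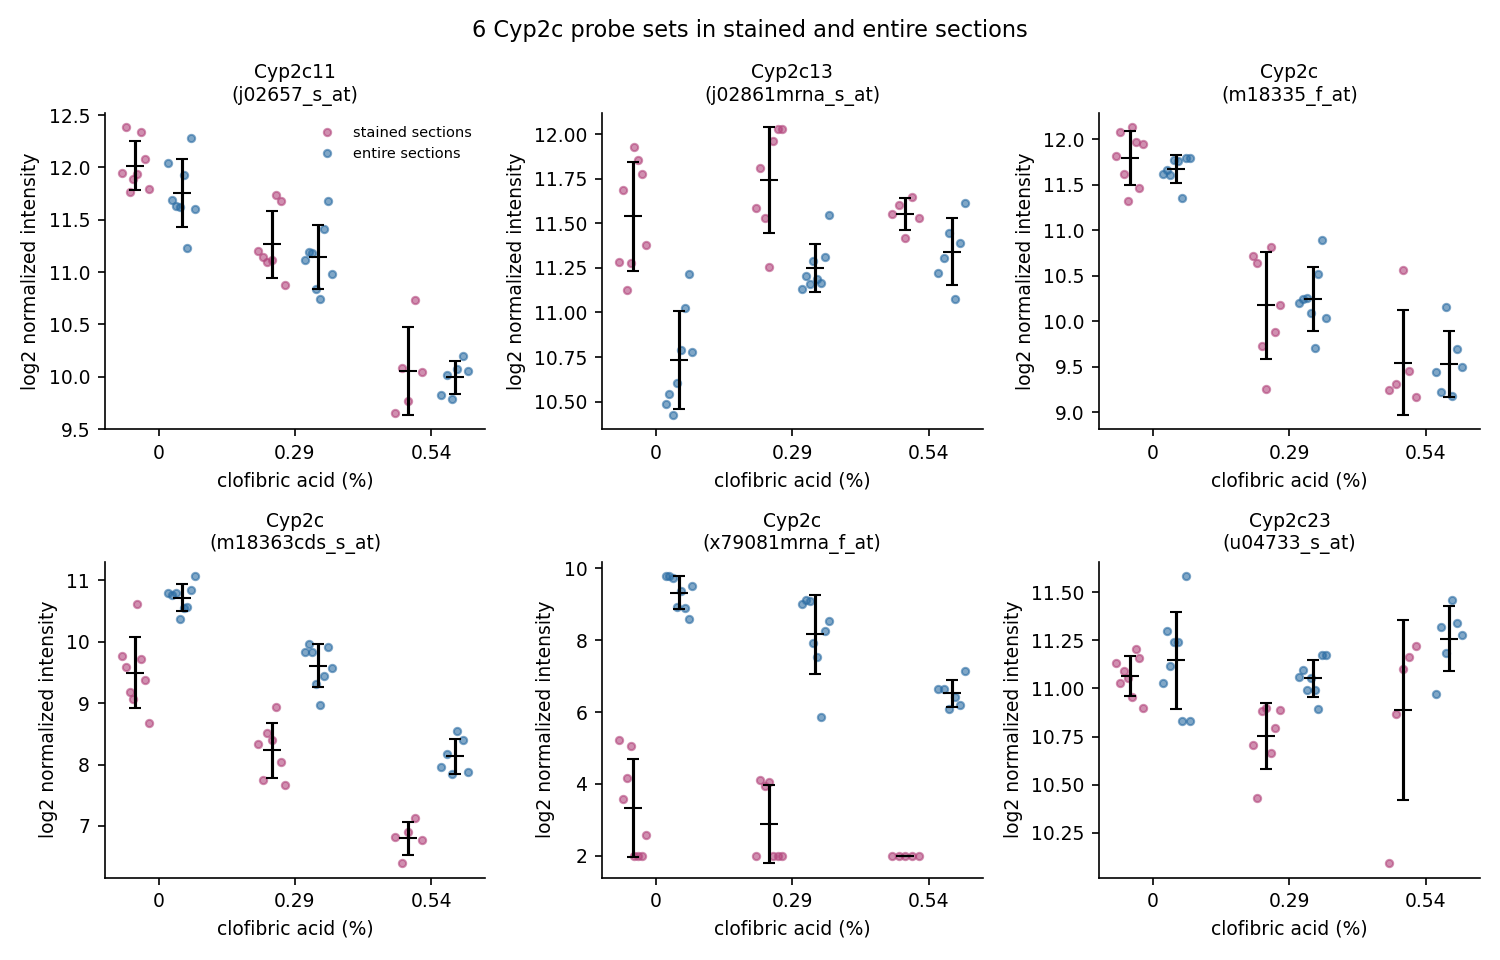
Log2 normalized intensity of the 6 Cyp2c probe sets (vertical axes, each with its own range) against CA dose, with stained sections left of entire sections at each dose. Points are arrays and bars give the mean ± SD. Cyp2c11, m18335_f_at and m18363cds_s_at are lower with CA in both preparations, while x79081mrna_f_at lies near the floor, a log2 value of 2, on most stained arrays.

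Counted over stained sections, 3 of the 6 Cyp2c probe sets fell at 0.29% CA (Cyp2c11, m18335_f_at and m18363cds_s_at) and none rose. Of the 7913 probe sets tested there, 1.78% were called lower and 1.83% higher. The same 3 were lower at 0.54%, against 3.18% called lower and 3.12% higher among all. Only Cyp2c11 was called for the step from 0.29% to 0.54%, among 0.0379% called lower and 0.0253% called higher. The test of the difference between the stained and the entire CA effect called none of the 6 at 0.29%, where 0.0855% of 8191 probe sets were called in either direction, and none at 0.54%, where 0.134% were. At an unadjusted p under 0.05, 0 of the 6 differed at 0.29%, against 4.77% of all probe sets, and 2 differed at 0.54%, Cyp2c13 and x79081mrna_f_at, against 9.78% of all. That second probe set was at the floor on all 5 stained arrays of that dose.

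**Figure D3:**
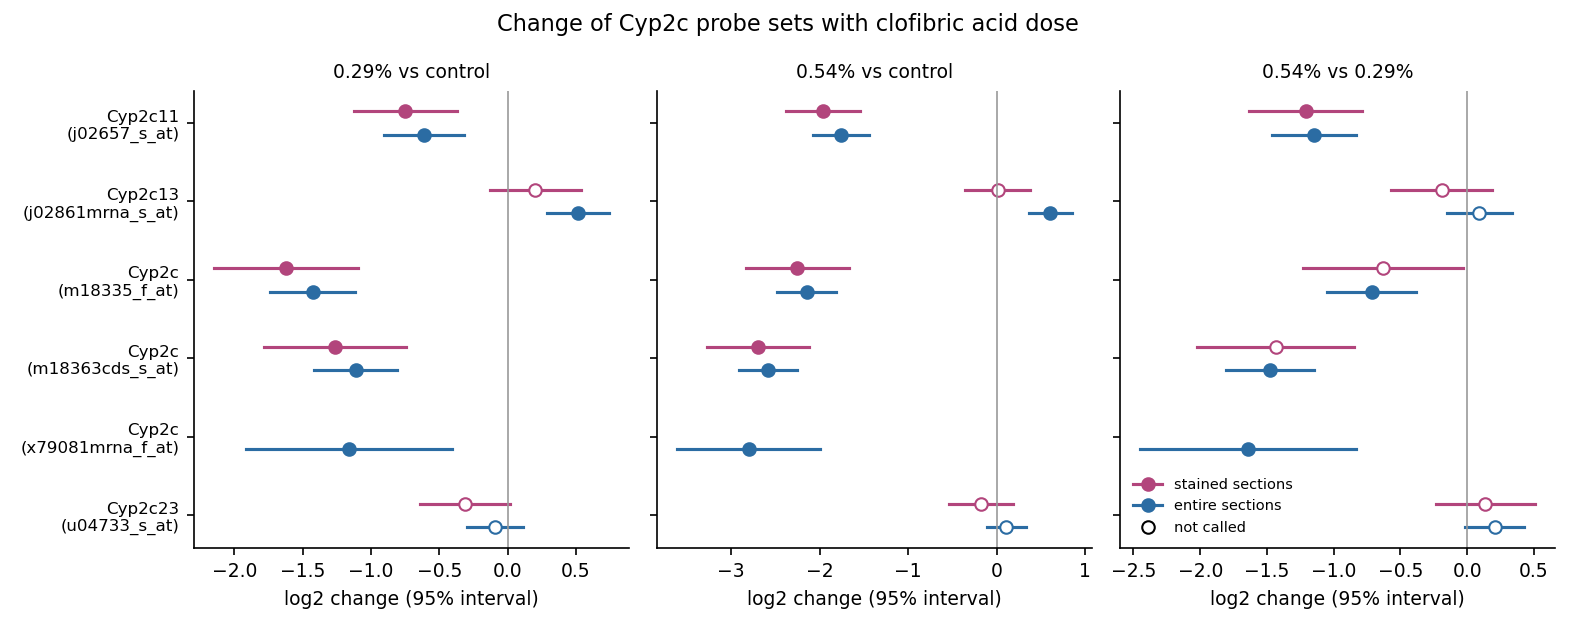
Log2 change of the Cyp2c probe sets for 0.29% CA against control, 0.54% CA against control and 0.54% against 0.29% CA (horizontal axes, limma estimate with its 95% interval), stained above entire sections. Filled points were called and open points were not, and x79081mrna_f_at is drawn for entire sections only. At 0.54% against control m18363cds_s_at stands at -2.70 in stained and -2.59 in entire sections, and Cyp2c13 at 0.01 and 0.61.

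A factor that multiplies a whole array leaves the ratio of a member to Cyp2c11 on that array unchanged, but quantile normalization can alter it. The ratios here were of deposited intensities after the floor, and they showed that the probe sets changed unequally. Groups were compared on these ratios with an exact permutation test, two-sided, with Benjamini-Hochberg adjustment over the 27 made. In entire sections the mean log2 ratio of Cyp2c13 to Cyp2c11 was -0.88 ± 0.34 at 0%, 0.11 ± 0.26 at 0.29% and 1.12 ± 0.37 at 0.54% CA (SD, n = 8, 8 and 6). The ratio rose by 1.997 at 0.54% against controls, with all treated arrays above all controls (exact permutation p = 0.000666, the smallest these groups allow, adjusted p = 0.0021). In stained sections it was -0.54 ± 0.28, 0.47 ± 0.43 and 1.51 ± 0.45 at the same doses, and rose by 2.04 at 0.54% (exact permutation p = 0.00155, the smallest these groups allow, adjusted p = 0.00323). This ratio was higher with CA in both preparations, but it rises whenever Cyp2c11 falls and does not show a rise of Cyp2c13. In stained sections at 0.54% CA the log2 change was 0.01 for Cyp2c13 and -1.96 for Cyp2c11. The rise of Cyp2c13 alone was called only in entire sections and depended on the scaling.

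The ratio of Cyp2c23 to Cyp2c11 rose likewise at 0.54% CA against controls, by 1.93 in stained and 1.53 in entire sections, with no overlap in either (exact permutation, adjusted p = 0.00323 and 0.0021). Cyp2c23 itself was not called in either preparation, while Cyp2c11 was lower in both. Against Cyp2c11, m18335_f_at fell by 0.69 on the log2 scale in entire sections at 0.29% CA, with all treated arrays below all controls (exact permutation p = 0.000155, the smallest possible, adjusted p = 0.0021). From 0.29% to 0.54% that ratio rose by 0.33 (exact permutation p = 0.03, adjusted p = 0.0426). That call was lost when any of 9 of the 14 arrays was left out, and without replicate 3 at 0.54% the rise was 0.19 (exact permutation, adjusted p = 0.0944). The fall of the m18335_f_at ratio at 0.54% against controls was not called with all arrays, but was without replicate 3 of the 0.54% group, at -0.61 in stained and -0.51 in entire sections (exact permutation, adjusted p = 0.023 and 0.00524), against -0.30 and -0.36 with it. In stained sections the same step of the ratio was 0.60 and was not called (exact permutation, adjusted p = 0.186). The ratio of m18363cds_s_at to Cyp2c11 fell by 0.90 at 0.54% CA in entire sections (exact permutation, adjusted p = 0.0021), and in stained sections the difference was -0.52 (exact permutation, adjusted p = 0.172). All these ratios share Cyp2c11 as denominator and are not independent of each other.

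Set against entire sections, stained control sections differed in 3 of the 6 Cyp2c probe sets, 1 higher and 2 lower. Of the 8191 probe sets tested, 16.4% were called higher and 13.8% lower. Calls were thus common among all probe sets here, and nothing is read into the count of 3 among 6 members. Cyp2c13 averaged 3203 in stained and 1881 in entire controls, 1.75-fold higher on the normalized scale (log2 change 0.81 ± 0.13, adjusted p = 4.64e-06, limma). With the GAPDH ratio of the array as a covariate the difference was 0.42 ± 0.17 and was no longer called (adjusted p = 0.16, limma). That fit cannot tell the ratio from the preparation. The probe set m18363cds_s_at averaged 734 in stained and 1878 in entire controls, 2.33-fold lower (-1.22 ± 0.20, adjusted p = 6.96e-06, limma), with stained control replicate 5 at 1643 inside the entire range. Cyp2c11 was not called (0.26 ± 0.15, adjusted p = 0.203, 95% interval -0.05 to 0.57), nor were m18335_f_at and Cyp2c23. On the deposited scale centred on array medians, where the median of all probe sets was itself 0.42 higher in stained sections and 74.2% of all calls were higher, against 54.4% after quantile normalization, Cyp2c11 stood 0.92 and m18335_f_at 0.73 higher and both were called (adjusted p = 0.000204 and 0.00542, limma).

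The probe set x79081mrna_f_at read close to 0 outside entire sections. The stained controls read 33, 10, 16, 30, -7, -1, 2 and 5, against 522 to 989 in entire controls. Only 5 of the 8 stained controls exceeded the floor of 4, so the fitted difference depends on the floor: the log2 change was -6.00 ± 0.45 (adjusted p = 3.11e-12, limma) with a floor of 4 and -4.80 ± 0.28 (adjusted p = 2.26e-15, limma) with a floor of 20. It read -4, -18, -5, -6 and -14 on the stained arrays at 0.54% CA, and at most 17 at 0.29%. In dehydrated sections it read 30, -4 and 2 at 0, 0.29 and 0.54% CA, in LCM reference time sections -29, 10 and -9, and in microdissected liver 16 at 0.29% and 0 at 0.54%, against 9 and -35 in the controls. Its log2 change in stained sections at 0.54% CA against controls was -1.33 ± 0.59 and was not called (adjusted p = 0.228, limma), though it was with the replicate number as a block (-1.89 ± 0.49, adjusted p = 0.0421, limma), and with a floor of 20 it was -0.21 ± 0.14.

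The GAPDH ratio moved with these differences between preparations, and its part in them was not tested. A fit with the ratio as a covariate cannot tell the ratio from the preparation, because few stained and entire arrays overlap in it. In that fit the log2 difference of stained from entire controls was -5.03 ± 0.64 for x79081mrna_f_at (adjusted p = 7.03e-06, limma) and -1.37 ± 0.29 for m18363cds_s_at (adjusted p = 0.0031, limma). The covariate turned the difference from 0.26 to -0.26 for Cyp2c11 and from 0.12 to -0.26 for m18335_f_at, neither of them called with or without it. The 3 entire arrays with a ratio above 4 read 522 at 0%, 400 at 0.29% and 93 at 0.54% CA for x79081mrna_f_at. Their whole dose groups ranged from 522 to 989, 62 to 651 and 81 to 139, so the control array was the lowest of its group.

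**Figure D4:**
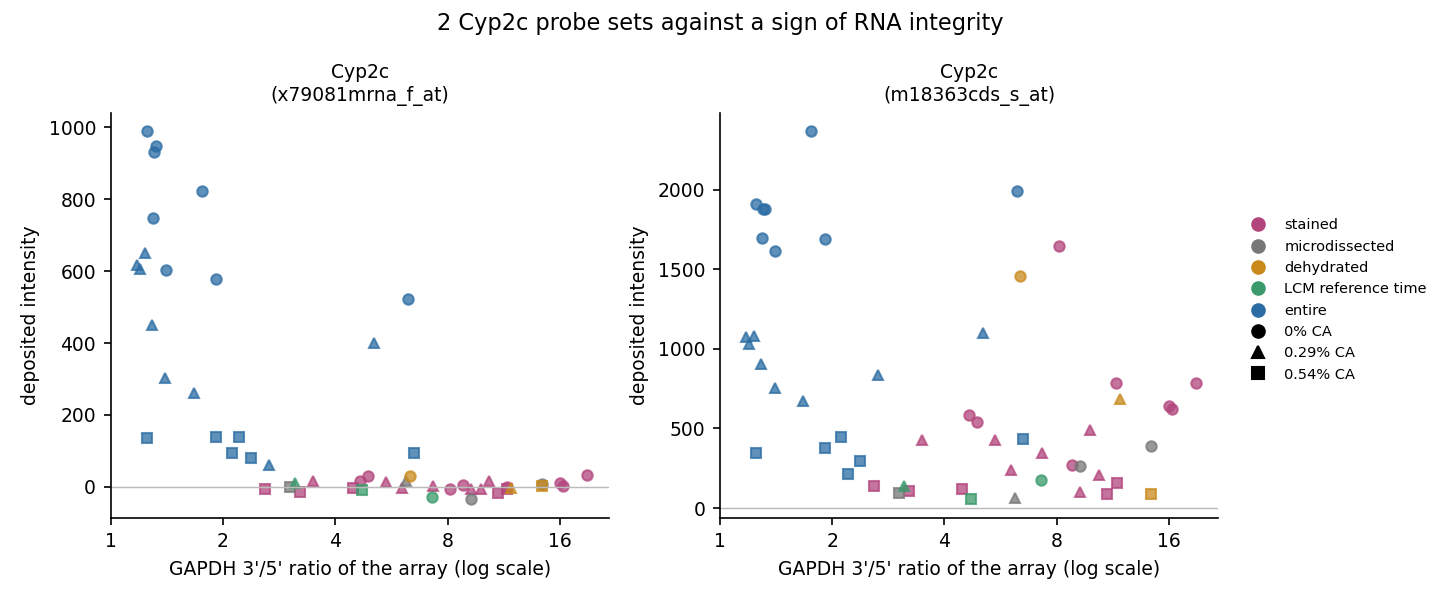
Deposited intensity of x79081mrna_f_at (left) and m18363cds_s_at (right) on every array against the array's GAPDH 3′/5′ ratio on a log axis, coloured by preparation, with the dose as the symbol. Stained, microdissected, dehydrated and LCM reference time arrays lie at or near 0 for x79081mrna_f_at. Most entire arrays have ratios below 4, and the 3 above it read 522 at 0%, 400 at 0.29% and 93 at 0.54% CA for x79081mrna_f_at. Their whole dose groups ranged from 522 to 989, 62 to 651 and 81 to 139.

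In microdissected liver, 3 of the 6 Cyp2c probe sets were lower with CA, both doses averaged, than in controls and none was higher. In that fit, which pools the spread of all 15 groups because each dose has 1 array, 7.08% of 8318 probe sets were called lower and 5.77% higher. Cyp2c11 was 2.46-fold lower (log2 change -1.30 ± 0.30, adjusted p = 0.00249, limma). The probe set m18335_f_at read 495 at 0.29% and 513 at 0.54% CA against 3211 and 3016 in controls (-2.16 ± 0.39, adjusted p = 0.000121, limma), and m18363cds_s_at read 62 and 95 against 390 and 262 (-2.15 ± 0.38, adjusted p = 9.88e-05, limma). For all 3, both CA arrays lay below both controls. The 2 microdissected controls correlated at r = 0.879 over all non-control probe sets. Group medians were 0.906 to 0.929 in stained and 0.958 to 0.959 in entire sections. The pooled spread may thus be too small for microdissected liver and these adjusted p values too low. Control replicate 2 and both CA arrays also had 5S rRNA intensities above 200 and were not among the 6 arrays left out together. After normalization the array at 0.54% read lower than that at 0.29% for m18335_f_at (log2 intensity 9.96 at 0.29% and 9.13 at 0.54%) and for m18363cds_s_at (7.16 and 6.61), so the order of the doses depends on the scaling. Cyp2c13 read 3412 and 4385 with CA and 4605 and 1790 in controls (0.26 ± 0.25, adjusted p = 0.614), and Cyp2c23 read 1356 and 2426 with CA and 2068 and 703 in controls (0.33 ± 0.24, adjusted p = 0.428), with wide gaps between the 2 controls. With arrays weighted by quality, the calls for Cyp2c11 (adjusted p = 0.152) and m18335_f_at (adjusted p = 0.0613) were lost.

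The other members in the single-array preparations read as follows. In dehydrated sections m18335_f_at read 4360, 2301 and 649 and m18363cds_s_at 1458, 687 and 87 at 0, 0.29 and 0.54% CA. In LCM reference time sections they read 2230, 727 and 363, and 176, 140 and 54. Both were lower at each higher dose in both preparations. Cyp2c13 read 2911, 3764 and 3094 in dehydrated and 1440, 3234 and 4345 in LCM reference time sections, and Cyp2c23 read 2952, 2336 and 2445, and 632, 1558 and 1816. In LCM reference time sections the 0% array read lowest for both, but its mean intensity was 113.8, against 141.7 at 0.29% and 168.3 at 0.54%. After normalization the log2 intensities at the 3 doses were closer together, at 11.37, 11.81 and 11.99 for Cyp2c13 and 10.53, 10.98 and 10.87 for Cyp2c23.

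Outside the Cyp2c members, the probe set whose pattern was most like that of Cyp2c11 was j00738_s_at, for which the files give no gene name. Among the 2775 probe sets above the floor on all stained and entire arrays, ranked by the lower of the correlations within each preparation, it correlated with Cyp2c11 at r = 0.94 over the 20 stained and r = 0.91 over the 22 entire arrays. It averaged 3686 ± 509 at 0%, 1295 ± 277 at 0.29% and 381 ± 85.2 at 0.54% CA in entire sections (SD, n = 8, 8 and 6), and its step of -1.86 ± 0.18 (adjusted p = 3.96e-06, limma) compares with -1.15 for Cyp2c11. The next was rc_aa893244_at, at r = 0.88 and 0.87. These correlations include the shared dose groups and array scaling and are a description. Within groups, after each group mean was taken out, Cyp2c11 correlated in entire sections at 0.51 with m18335_f_at, 0.50 with m18363cds_s_at, 0.54 with Cyp2c23, 0.06 with Cyp2c13 and -0.07 with x79081mrna_f_at over the 22 arrays. In stained sections the same order of probe sets gave 0.10, 0.36, 0.32, 0.46 and -0.27 over 20 arrays, so the probe sets with the higher values were not the same in both preparations.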

How the data were processed

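The authors deposited intensities on a linear scale as whole numbers, of which 20.6% to 30.1% on an array were below 0. How they were computed and scaled is not stated in the sources available. Precision is limited by the number of arrays and by signal over background.

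Intensities under a floor of 4, the 10th percentile of the positive ones, were raised to it, converted to log2 and quantile normalized over 52 arrays without the 59 control probe sets. Tests used lmFit and eBayes of limma 3.58.1 (R 4.3.3), two-sided. The Benjamini-Hochberg adjustment covered all non-control probe sets that exceeded the floor on any array of a fit, and calls were made under 0.05. Entire groups shared 1 fit and stained groups another. Contrasts of the 2 preparations used these 6 groups, and microdissected liver was fitted with all 15, its lone arrays being assumed to vary like the others. The 2 microdissected controls were less alike (r = 0.879) than the median pair of any stained or entire group, so that spread may be too small. Within-array ratios were tested by exact permutation (SciPy 1.17.1, Python 3.11.15), and plots drawn with matplotlib 3.10.9. The code of the fit was run on simulated data with planted changes and independent normal noise. That run covered neither values at the floor nor degraded RNA, and nothing about the changes given here is drawn from it.

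Groups came from the labels, which name no batch or scan date. Samples with the same replicate number did not deviate together in all pairs of any comparison, so the number was not used as a block. Every member is named. Other probe sets were named by the rule of highest lower correlation with Cyp2c11, at most 2. Lists of other P450s, fatty acid enzymes, Cyp2c regulators, sex-dependent liver genes and cell type markers had been set by gene symbol, but 0 of 8740 identifiers matched the gene table used here, so no count can be given for them. The members and lists were chosen with earlier results of these data known. Alternatives tried were deposited intensities centred on array medians (the deposited scale), a floor of 20, quantile normalization first and the floor second, a 75th percentile filter on mean intensity (66), no filter, all 15 groups in the fit (for microdissected liver, the microdissected and entire groups), array weights, the replicate block, the GAPDH ratio as a covariate, leaving out the 6 arrays in doubt and leaving out each array.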

Additional observations from a re-analysis of the deposited data

Results flagged for a closer look

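In the members, 3 single arrays stood apart from the rest of their group on the log2 normalized scale. The gap was larger than would be met in about 1 in 20 groups by chance, out of 35 groups of values examined. The probe set for Cyp2c13 read 3216 on entire 0.29% CA replicate 8, above the other 7 arrays of that group. On entire control replicate 6, m18335_f_at had a log2 normalized intensity of 11.35, below the 11.60 to 11.80 of the other 7. Its deposited intensity of 2802 lay close to the next lowest, 2967. That array also gave the lowest Cyp2c11 intensity of its group. The probe set m18335_f_at also read 1683 on stained 0.54% CA replicate 3, above the other 4 arrays, which read between 541 and 849. The GAPDH 3′/5′ ratio of that array was 2.59, the lowest of the stained arrays, and its part in the value was not tested.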

How the results depend on the processing

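Of 1569 refits of single Cyp2c probe sets under other settings or without 1 array, 1478 kept their direction and side of the threshold, 57 lost a call and 9 gained one. In 25 refits, of 13 results not called in either fit, the sign changed or the change came to 0, and 0 called results turned round. The widest was x79081mrna_f_at in microdissected liver, at 0.74, but -0.725 without the 0.29% array. The counts of Cyp2c probe sets called moved as follows. For the entire step from 0.29% to 0.54%, 4 were called, but 2 with all 15 groups in the fit, 2 without the arrays in doubt and 2 to 4 when 1 array was left out. The m18335_f_at call was lost without 0.29% replicate 1, 2, 3 or 4 or 0.54% replicate 1, 2, 4, 5 or 6 (adjusted p up to 0.1), and the x79081mrna_f_at call without 0.29% replicate 1, 2, 3, 4, 7 or 8 or 0.54% replicate 1, 2, 3, 4 or 5. The x79081mrna_f_at call at 0.29% against controls was lost without control replicate 1, 2, 3, 5 or 8 or 0.29% replicate 4, 5 or 7. For the stained step, 1 was called, but 0 on the deposited scale, with the replicate block or without the arrays in doubt, 2 with a floor of 20, with the 75th percentile filter, with all 15 groups or with array weights, and 0 to 2 without 1 array. Cyp2c11 lost that call without 0.29% replicate 1, 2, 3, 5 or 6 or 0.54% replicate 1, 2, 3 or 5, and m18363cds_s_at gained it without 0.29% replicate 7. For stained against entire controls, 3 were called, but 5 on the deposited scale. For the difference of the 0.54% effect 0 were called, but 1 with a floor of 20 (x79081mrna_f_at, log2 difference 2.595, adjusted p = 0.000515), and in microdissected liver 3, but 1 with array weights. The causes were not tested.

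The replicate numbers were not taken to pair the samples, because in each of the 9 pairs of groups fewer than all same-numbered samples correlated above 0.1. Whether some samples were paired is not known from the labels. Most did between stained 0.29% and 0% samples, 6 of 7 (-0.17 to 0.50, median 0.23, 4 best with their own number), and between entire 0.29% and 0% samples, 5 of 8 (-0.04 to 0.47), a hint from the data and not the design. With the replicate block, m18335_f_at lost its entire step call (adjusted p = 0.0582) and Cyp2c11 its stained one (adjusted p = 0.127), while x79081mrna_f_at gained a call in stained sections at 0.54% against controls, making 4 members called there in place of 3.

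Over all probe sets, calls at 0.29% and 0.54% in entire sections were 877 and 1236, but 539 and 790 with all 15 groups, and 1933 at 0.54% with array weights. For the entire step they were 79, from 33 to 118 when 1 array was left out (33 without 0.54% replicate 2), and in other settings from 34 on the deposited scale (58.8% of them higher, 46.8% otherwise), to 331 with array weights. In stained sections they were 286 and 499, but 546 and 964 with all 15 groups, and 301 at 0.54% with the GAPDH covariate. For the stained step they were 5, from 1 to 19 in other settings and from 1 to 9 without 1 array. For stained against entire controls they were 2475, but 400 with the GAPDH covariate, 1333 with the 75th percentile filter and 3798 on the deposited scale. For the differences of effects they were 7 and 11, and from 0 to 17 and 0 to 30 in other settings, and from 6 to 13 and 7 to 20 without 1 array. In microdissected liver they were 1069, but 312 on the deposited scale (56.7% of them higher, 44.9% otherwise), 335 with array weights, 416 with the 75th percentile filter, 1841 with the microdissected and entire groups only, and 467 without the 0.29% array and 698 without control replicate 2. Leaving out arrays for the within-array ratios was chosen after seeing the data. The m18335_f_at ratio lost its entire step call without 0.29% replicate 1, 2, 3, 5 or 8 or 0.54% replicate 1, 3, 5 or 6, and the x79081mrna_f_at ratio gained one for that step without 0.29% replicate 6, at -1.04 in place of -0.68 (exact permutation, adjusted p = 0.00393).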
